A study of Homo sapiens with 9 samples.

Results

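Kinesins are motor proteins that use ATP to move along microtubules or to take them apart. One set of them acts in dividing cells, where its members separate the spindle poles, align the chromosomes, trim microtubule ends and complete cytokinesis. Another set carries vesicles, endosomes, mitochondria and ciliary components through the cytoplasm between divisions. In a carcinoma line that divides in culture both sets are in use, and the mitotic ones rise and fall with the cell cycle, their RNA being highest as cells approach division.

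The kinesins were taken as all genes with a KIF or KIFC symbol and a number, each measured by a probe set that carried that symbol alone, and by the brightest such probe set where a gene had several. This gave 31 of the 14232 genes tested. Of 33 probe sets with a single kinesin symbol, 2 genes (KIF24 and KIF5A) had more than 1. A further 10 probe sets named a kinesin together with another gene and were not used, so KIF4A, KIF4B, KIF20A, KIF23, KIF7, KIF9, KIF19, KIF27 and KIFC2 are not analysed here, and neither are KIF18B and KIFC1. One of the unused probe sets named KIF2A with IPO11, and KIF2A was measured by its own probe set. The members were divided by known role into 9 mitotic kinesins (of 15 listed), 14 transport kinesins (of 15 listed) and 8 others, which act in cilia or on microtubule growth or whose role is not settled.

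RNA came from PANC-1, a human pancreatic carcinoma line, 72 h after transfection, on 9 arrays in 3 groups of 3 biological replicates. NT cells were given the Lipofectamine RNAiMAX reagent without RNA, NC cells the reagent with 20 nM of a negative control mimic, and miR520 cells the reagent with 20 nM of a miR-520f mimic, so all groups shared the reagent and differed in the RNA. The mimics were transient and used at a single dose, time and cell line. The study compared miR-520f with each of the controls and took genes changed in the same direction against both as its targets.

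A mimic copies a mature microRNA, whose seed, bases 2 to 8, pairs with target messages. The labels name miR-520f without its arm, so both mature arms are shown as RefSeq lists them on GRCh38.p14, chromosome 19, plus strand, at chr19:53682173-53682194 and chr19:53682213-53682234, with the seed in capitals. No other mature human microRNA in that table shared either seed (0 for each arm).
hsa-miR-520f-5p: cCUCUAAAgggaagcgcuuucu
hsa-miR-520f-3p: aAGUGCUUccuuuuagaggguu

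Values are log2 intensities made with RMA, which corrects the background, brings arrays to a common distribution and summarises probes, and the array medians lay between 4.22 and 4.34. Of the 9 arrays, NC replicate 1 lay farthest from its group mean over all genes (root mean square deviation 0.169, against 0.0698 to 0.131 for the others). Over the kinesins that array (0.140) was close to NC replicate 3 (0.139) and miR520 replicate 3 (0.137). Markers of the line were bright, with KRT8 at 11.27 to 11.77 and VIM at 11.83 to 12.21, while KRT7 was at 3.43 to 3.56. They were not all steady. Of the 6 listed, 1 rose and 2 fell against both controls (50%, beside 18.0% of all genes). EPCAM rose by 1.57 and 1.68 against NT and NC, while KRT19 fell by 0.75 and 0.68 and VIM by 0.23 and 0.24. Of 15 listed immune, endothelial, acinar and endocrine markers 10 were measured, and 9 of these lay low on every array (2.86 to 4.04, among them PTPRC, PECAM1, CPA1 and CHGA) without a call. The exception was CD68, a lysosomal protein of macrophages that other cells also make, at 7.24 to 8.90, which fell by 1.31 and 0.90 against NT and NC and by 0.41 in NC against NT (SE 0.11 each, limma adjusted p = 7.06e-06, 9.28e-05 and 0.0258). The summed level of the 9 was 28.3 to 30.3 in NT, 29.1 to 30.0 in NC and 28.4 to 29.3 with miR-520f, and with CD68 37.2 to 38.8, 37.5 to 38.2 and 35.6 to 36.7. The part of CD68 and of the line markers in the kinesin changes was not tested.

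With the miR-520f mimic, most mitotic kinesins stood above their level in NT cells, while transport kinesins moved in both directions. A gene was called at an adjusted p under 0.05 in a limma fit over all genes. Against NT cells 7 of the 9 mitotic kinesins rose and 0 fell, while 2 of the 14 transport kinesins rose and 3 fell, and 1 of the 8 others rose. The mitotic count of 7 became 5 with an unmoderated fit or a repeated quantile normalization, and 5 to 7 with single arrays left out. Over all genes 27.6% were called in that comparison, 14.5% higher and 13.1% lower. Against NC cells 4 mitotic kinesins rose and 1 fell, 1 transport kinesin rose and 4 fell, and 1 of the others rose, beside 28.1% of all genes called (15.4% higher and 12.6% lower). In all, 13 kinesins (41.9%) were called against NT and 11 (35.5%) against NC.

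Both comparisons share the miR520 arrays. Against both controls with the same sign, 6 kinesins rose and 1 fell, 22.6% of the 31, where 18.0% of all genes were called in this way (9.37% higher and 8.61% lower). By this count the family as a whole was called about as often as other genes. In the single comparisons its share was higher, 41.9% beside 27.6% against NT and 35.5% beside 28.1% against NC. The rises were KIF11, KIF18A, KIF22 and KIF2A among the mitotic kinesins, KIF1B among the transport kinesins and KIF21A among the others, and the fall was KIF13A, a transport kinesin. On 10 kinesins the miR520 arrays lay apart from all 6 control arrays, 7 higher and 3 lower, and over all genes this held for 25.4%.

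Brightness bears on these counts. The 11 kinesins with a mean below 4.53, the median of all genes, lay between 2.79 and 4.35 on every array, and 0 of them was called by limma in any comparison (lowest adjusted p = 0.211). They were the mitotic KIF2B, the transport kinesins KIF13B, KIF17 and KIF5C, and KIF12, KIF21B, KIF24, KIF25, KIF26A, KIF26B and KIF6. RMA compresses differences at this end of the scale. Of the 20 brighter kinesins, 13 were called against NT and 11 against NC, where 46.6% and 47.3% of all genes of that brightness were called. The 8 brighter mitotic kinesins held 7 rises against NT, where 25.7% of genes of that brightness were higher, and 4 against NC, where 26.7% were.

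**Figure D1:**
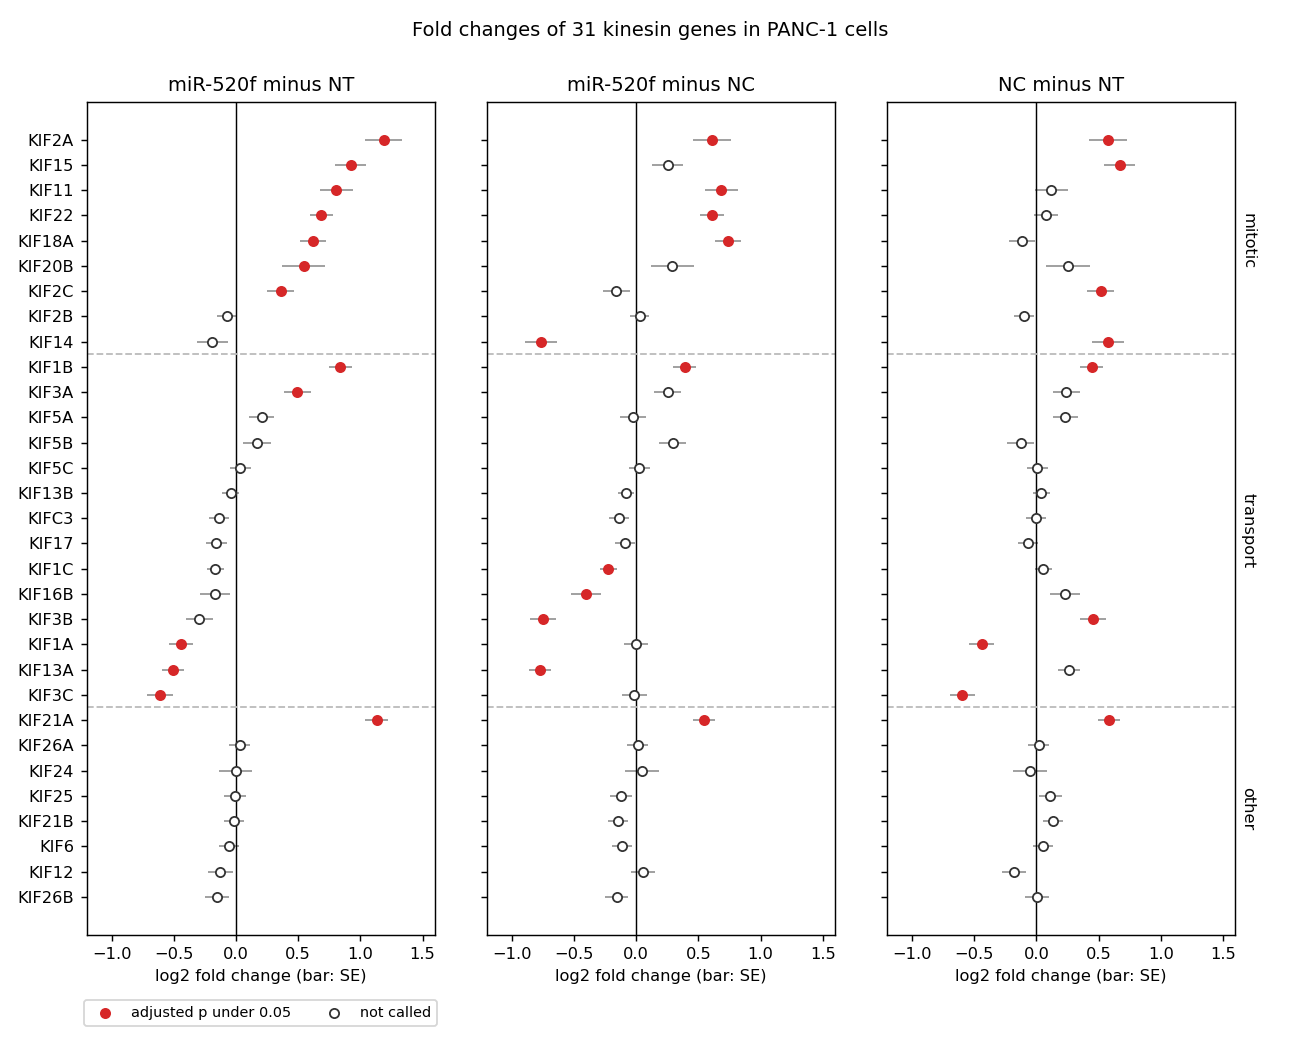
Log2 fold changes (horizontal axis, bars are standard errors) of the 31 kinesin genes in the comparisons of miR-520f with NT, miR-520f with NC and NC with NT, in blocks of 9 mitotic, 14 transport and 8 other kinesins ordered by the first comparison. Filled points passed an adjusted p under 0.05: 7 mitotic kinesins lie to the right in the first panel, and 4 remain filled to the right in the second, where KIF14 lies to the left.

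The kinesins that build and order the spindle are given first. KIF11, the motor that slides spindle microtubules apart and so separates the poles, measured 7.81, 7.79 and 8.07 in NT replicates 1 to 3, 7.82, 7.93 and 8.29 in NC and 8.65, 8.57 and 8.88 with miR-520f. All miR520 arrays lay above all control arrays, and the control groups overlapped. KIF11 (probe set 3258168) rose by 0.81 against NT (SE 0.13, 1.75-fold, limma adjusted p = 0.00083) and by 0.69 against NC (SE 0.13, 1.61-fold, limma adjusted p = 0.0023).

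KIF18A, which damps the movements of chromosomes and aligns them at the spindle equator, measured 6.91, 6.74 and 6.83 in NT, 6.50, 6.70 and 6.94 in NC and 7.43, 7.40 and 7.52 with miR-520f. Its miR520 arrays were close together and above every control array, although the NC arrays were spread. KIF18A (probe set 3367338) rose by 0.62 and 0.74 against NT and NC (SE 0.10 each, limma adjusted p = 0.000946 and 0.000279).

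KIF22, a chromokinesin that pushes chromosome arms away from the poles, measured 7.91, 7.57 and 7.62 in NT, 7.68, 7.80 and 7.86 in NC and 8.39, 8.44 and 8.34 with miR-520f. Here too the control groups overlapped and the miR520 arrays lay above both. KIF22 (probe set 3655628) rose by 0.69 and 0.61 (SE 0.10 each, limma adjusted p = 0.000275 and 0.000613). For these 3 genes NC minus NT was 0.12, -0.12 and 0.08, in the order given, with no call.

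KIF2A, a kinesin that does not walk but removes tubulin from microtubule ends at the spindle poles and also acts in non-dividing cells, showed a different order of groups. Its values were 7.39, 7.32 and 7.49 in NT, 8.10, 7.87 and 7.97 in NC and 8.42, 8.33 and 9.01 with miR-520f, so that no group overlapped another and replicate 3 was the highest of the miR520 arrays. KIF2A (probe set 2811656) rose by 1.19 against NT (SE 0.15, 2.28-fold, limma adjusted p = 0.000147), the largest rise among the kinesins in that comparison, and by 0.61 against NC (SE 0.15, limma adjusted p = 0.0106). In NC cells it was already higher than in NT cells by 0.58 (limma adjusted p = 0.0254), a call lost without NT replicate 1 (0.0674), NT replicate 2 (0.0928) or NC replicate 1 (0.0720). With an unmoderated fit its calls with miR-520f against NC (adjusted p = 0.0703) and in NC against NT (0.129) were lost.

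**Figure D2:**
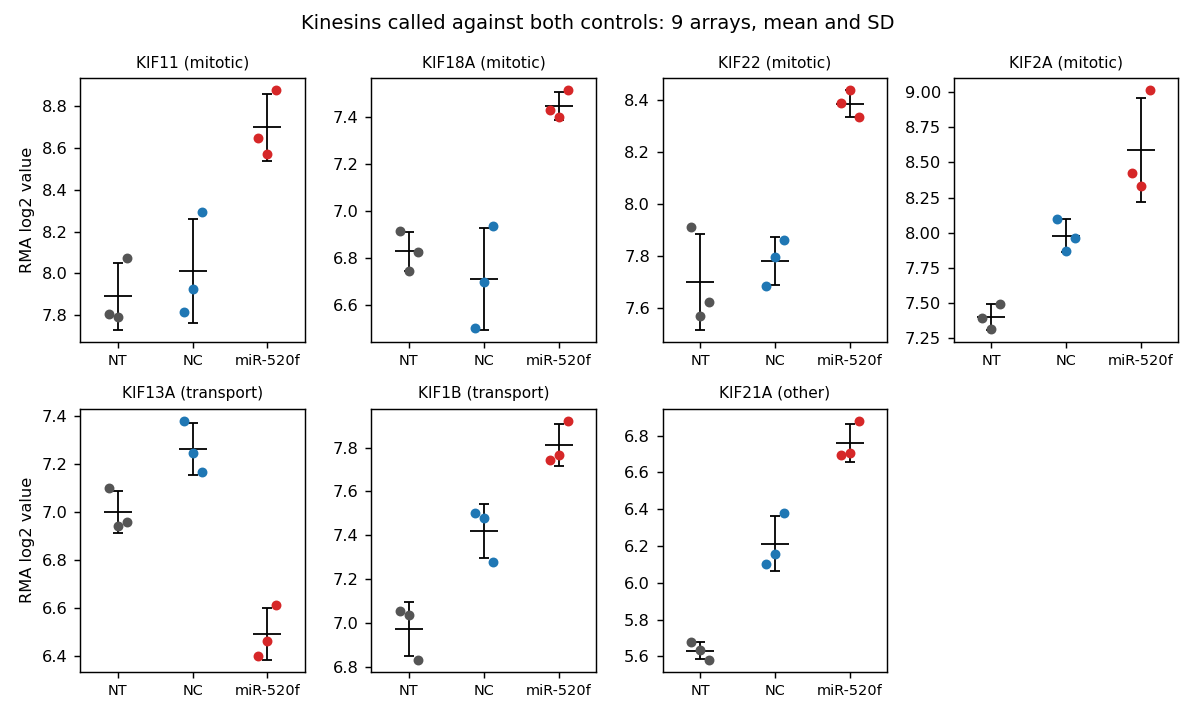
RMA log2 values (vertical axes, a scale for each gene) of the 7 kinesins called against both controls, with a point for each of the 3 arrays of NT, NC and miR-520f, and lines at the mean with the SD. The miR520 points lie above all control points for KIF11, KIF18A, KIF22, KIF2A, KIF1B and KIF21A and below them for KIF13A, and NC lies between the other groups for KIF2A, KIF1B and KIF21A.

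KIF15, KIF2C and KIF14 also differed between the controls, and for these the choice of control decided the call. KIF15, which can stand in for KIF11 in keeping the poles apart, measured 5.96, 5.66 and 5.80 in NT, 6.67, 6.45 and 6.32 in NC and 6.80, 6.50 and 6.90 with miR-520f. The NC and miR520 arrays overlapped, and both groups lay above NT. KIF15 (probe set 2620256) rose by 0.92 with miR-520f (limma adjusted p = 0.000214) and by 0.67 with the control mimic (limma adjusted p = 0.00429) against NT, and was 0.25 apart between the mimics (SE 0.12, limma adjusted p = 0.175).

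KIF2C, the depolymerase of the centromere that corrects faulty chromosome attachments, measured 7.92, 7.52 and 7.65 in NT, 8.32, 8.20 and 8.11 in NC and 8.07, 7.94 and 8.14 with miR-520f. The mimic groups overlapped here as well. KIF2C rose by 0.36 with miR-520f against NT (SE 0.11, limma adjusted p = 0.0266) and by 0.52 with the control mimic (SE 0.11, limma adjusted p = 0.00746), and miR-520f minus NC was -0.16 (limma adjusted p = 0.339). Its call with miR-520f against NT was lost without NT replicate 2 (adjusted p = 0.121), NT replicate 3 (0.0826), miR520 replicate 1 (0.0803) or miR520 replicate 3 (0.102). An unmoderated fit lost both calls against NT (adjusted p = 0.0862 with miR-520f and 0.0508 with the control mimic).

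KIF14, which works at the midbody in the last step of division, was the 1 mitotic kinesin that fell against NC. Its values were 6.34, 6.23 and 6.44 in NT, 7.10, 6.71 and 6.93 in NC and 6.13, 5.92 and 6.39 with miR-520f. The NC arrays stood above all others, and the NT and miR520 arrays overlapped. KIF14 (probe set 2450345) fell by 0.76 against NC (SE 0.13, limma adjusted p = 0.000899), while miR-520f minus NT was -0.19 (limma adjusted p = 0.369) and NC minus NT was 0.58 (limma adjusted p = 0.0110, and 0.0504 without NT replicate 2). These differences share the NC arrays. With an unmoderated fit the call in NC against NT was lost (adjusted p = 0.0758).

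KIF20B, which acts in cytokinesis, measured 7.14, 7.14 and 7.41 in NT, 7.38, 7.17 and 7.91 in NC and 7.90, 7.52 and 7.91 with miR-520f. NC replicate 3 was level with the highest miR520 array. KIF20B rose by 0.54 against NT (SE 0.17, limma adjusted p = 0.0383), and miR-520f minus NC was 0.29 (SE 0.17, limma adjusted p = 0.280). The first call was lost without NT replicate 1 (0.112), NT replicate 2 (0.117), miR520 replicate 1 (0.126) or miR520 replicate 3 (0.136), and without NC replicate 3 KIF20B was called against NC (0.50, adjusted p = 0.0191). With an unmoderated fit the call against NT was also lost (adjusted p = 0.152). KIF2B, a relative of KIF2A and KIF2C, was dim, at 2.79 to 3.10.

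The promoters of the mitotic kinesins were examined because several of these genes moved together. Late cell cycle genes are known to carry a CHR (cell cycle genes homology region) close to the transcription start, often downstream of a CCAAT box. A CHR was searched as TTTGAA or TTCGAA and a CCAAT box as CCAAT, on both strands, in RefSeq windows of GRCh38.p14 from 250 bases before to 50 after the start, taking the first window listed for a gene. Of the 31 kinesins 26 had a window. A CHR stood in 6 of 9 mitotic kinesin windows (66.7%), 1 of 11 transport kinesin windows (9.09%) and 1 of 6 windows of the others, and in 13.1% of the windows of 11385 tested genes. A CCAAT box stood in 5 of 9, 3 of 11 and 3 of 6, against 36.5%, and both motifs in 5, 1 and 1, against 5.41%. The mitotic windows with a CHR belonged to KIF11, KIF14, KIF15, KIF18A, KIF20B and KIF22, and those of KIF2A, KIF2B and KIF2C held neither motif. Of the 6 with a CHR, KIF11, KIF18A and KIF22 were called against both controls, and KIF14, KIF15 and KIF20B were not. KIF2A was called against both controls without a CHR in its window. In KIF14 and KIF20B the CHR lay after the start. A match describes letters in a window and is not evidence of binding.

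The 150 bases before the start are shown for the 4 mitotic kinesins that rose against both controls, with both motifs, or their reverse complements, in capitals, since they differ in these motifs. KIF11 lies at chr10:92592980-92593129 on the plus strand, KIF18A at chr11:28108157-28108306 on the minus strand, KIF22 at chr16:29790601-29790750 on the plus strand and KIF2A at chr5:62306056-62306205 on the plus strand.
KIF11: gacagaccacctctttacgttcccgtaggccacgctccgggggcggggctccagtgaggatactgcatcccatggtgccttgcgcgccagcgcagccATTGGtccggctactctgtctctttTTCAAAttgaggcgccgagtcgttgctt
KIF18A: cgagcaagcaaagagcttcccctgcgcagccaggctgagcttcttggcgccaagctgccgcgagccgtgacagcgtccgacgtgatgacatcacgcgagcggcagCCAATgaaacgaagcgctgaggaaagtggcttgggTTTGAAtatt
KIF22: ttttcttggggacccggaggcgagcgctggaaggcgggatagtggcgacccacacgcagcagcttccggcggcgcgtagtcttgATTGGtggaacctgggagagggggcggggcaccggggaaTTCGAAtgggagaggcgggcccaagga
KIF2A: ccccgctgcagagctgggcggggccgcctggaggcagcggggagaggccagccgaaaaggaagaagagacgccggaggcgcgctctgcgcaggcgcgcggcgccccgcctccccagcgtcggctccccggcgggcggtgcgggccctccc
The CHR of KIF11, KIF18A and KIF22 began 28, 10 and 27 bases before the start, and the CCAAT box 53, 45 and 66 bases before it.

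Genes that work with the mitotic kinesins gave the setting for these changes. Of 17 measured partners (of 20 listed), 12 rose and 2 fell against NT, 10 rose and 2 fell against NC, and the same counts, 10 and 2, held against both controls. That is 82.4%, 70.6% and 70.6% of the partners, where 27.6%, 28.1% and 18.0% of all genes were called. Every partner lay above the median level of 4.53 (lowest mean 6.75). Of genes at or above that level 46.6% were called against NT and 47.3% against NC. The median log2 fold change of the partners was 0.63 against NT and 0.40 against NC, that of the 9 mitotic kinesins 0.62 and 0.29, and that of all genes -0.03 and -0.03. TOP2A, which untangles chromosomes, rose by 1.01 and 0.92 against NT and NC, and the spindle kinase AURKA by 1.17 and 0.80. Chosen after their values were seen, CIT, the citron kinase that KIF14 binds at the midbody, rose by 0.68 and 1.57 and the proliferation marker MKI67 by 0.48 and 0.44. In bulk RNA a larger share of cells near division and more RNA in each such cell cannot be told apart, and the part of either in the kinesin changes was not tested.

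The partners that fell were PRC1 and NUMA1. PRC1, which bundles the microtubules of the central spindle and binds KIF14 among other kinesins, fell by 0.77 and 1.05 against NT and NC (SE 0.09 each, limma adjusted p = 0.000107 and 1.12e-05). NUMA1, which anchors microtubules at the poles, fell by 0.80 and 1.01. CENPE, the kinesin of the kinetochore, whose symbol lies outside the KIF naming and which was also chosen after its values were seen, had log2 fold changes of 0.55 and 0.11 with no call (SE 0.20 each, limma adjusted p = 0.0700 and 0.751).

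Transport kinesins moved in both directions. Their median log2 fold change was -0.15 against NT and -0.05 against NC. KIF13A, which moves recycling endosomes and cargo from the Golgi to the cell surface, fell against both controls. Its values were 7.10, 6.94 and 6.96 in NT, 7.38, 7.24 and 7.17 in NC and 6.40, 6.46 and 6.61 with miR-520f, with all miR520 arrays below all control arrays. KIF13A (probe set 2943874) fell by 0.51 against NT (SE 0.09, limma adjusted p = 0.00107) and by 0.77 against NC (SE 0.09, 0.586 times the NC level, limma adjusted p = 5.49e-05).

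KIF1B, whose products carry mitochondria and synaptic vesicle precursors, rose in steps. It measured 7.05, 7.04 and 6.83 in NT, 7.50, 7.48 and 7.28 in NC and 7.74, 7.77 and 7.92 with miR-520f, and no group overlapped another. KIF1B (probe set 2319661) rose by 0.84 against NT (SE 0.09, limma adjusted p = 5.41e-05) and by 0.39 against NC (SE 0.09, limma adjusted p = 0.00773), and by 0.45 with the control mimic against NT (limma adjusted p = 0.00769).

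Its relative KIF1A, the carrier of synaptic vesicle precursors, went the other way with either mimic. KIF1A measured 8.09, 7.93 and 7.83 in NT, 7.56, 7.65 and 7.33 in NC and 7.44, 7.57 and 7.52 with miR-520f. It fell by 0.44 against NT with miR-520f (SE 0.10, limma adjusted p = 0.00594) and by 0.44 with the control mimic (SE 0.10, limma adjusted p = 0.0119), and the difference between the mimics was 0.00 (SE 0.10, limma adjusted p = 0.992). With an unmoderated fit its call in NC against NT was lost (adjusted p = 0.0596). KIF1C, a carrier of vesicles and integrins, measured 5.79, 5.82 and 5.76 in NT, 5.78, 5.91 and 5.86 in NC and 5.69, 5.62 and 5.56 with miR-520f. KIF1C fell against NC by 0.22 (SE 0.07, limma adjusted p = 0.0315), and miR-520f minus NT was -0.17 (limma adjusted p = 0.104). That call was lost without any of the miR520 replicates (0.0515, 0.0816 and 0.107), NC replicate 2 (0.111), NC replicate 3 (0.0718) or NT replicate 2 (0.0537), and with arrays centred on the median (0.0534).

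The kinesin of ciliary transport is made of KIF3A, KIF3B and the adaptor KIFAP3, and KIF3C is a relative that can also pair with KIF3A. These genes did not move together. KIF3A measured 6.47, 6.48 and 6.39 in NT, 6.64, 6.73 and 6.68 in NC and 6.87, 6.73 and 7.21 with miR-520f. It rose by 0.49 against NT (SE 0.11, limma adjusted p = 0.00537) and stood 0.25 above NC without a call (limma adjusted p = 0.115, and 0.0312 without miR520 replicate 2, where the difference was 0.36). KIFAP3 rose by 0.57 and 0.33 against NT and NC (SE 0.09 each, limma adjusted p = 0.000913 and 0.0214).

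KIF3B measured 7.13, 7.35 and 7.12 in NT, 7.42, 7.79 and 7.75 in NC and 6.83, 6.98 and 6.92 with miR-520f, with the miR520 arrays below all others. It fell by 0.75 against NC (SE 0.11, 0.595 times the NC level, limma adjusted p = 0.000292), and miR-520f minus NT was -0.29 (SE 0.11, limma adjusted p = 0.0629). Without NC replicate 1, the array farthest from its group over all genes, KIF3B also passed against NT (adjusted p = 0.0147). In NC cells KIF3B was higher than in NT cells by 0.45 (limma adjusted p = 0.0145), a call lost without NT replicate 3 (0.0535) or NC replicate 2 (0.0562). An unmoderated fit also lost that call (adjusted p = 0.0723).

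KIF3C measured 7.25, 6.96 and 6.90 in NT, 6.58, 6.45 and 6.30 in NC and 6.46, 6.40 and 6.43 with miR-520f. Both mimic groups lay below NT and overlapped each other. KIF3C fell by 0.61 with miR-520f (SE 0.10, limma adjusted p = 0.000954) and by 0.60 with the control mimic (SE 0.10, limma adjusted p = 0.00273) against NT, and the mimics differed by -0.02 (limma adjusted p = 0.936).

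KIF16B, which carries early endosomes, measured 5.63, 5.72 and 5.50 in NT, 5.55, 5.96 and 6.03 in NC and 5.44, 5.35 and 5.55 with miR-520f. It fell by 0.40 against NC (SE 0.12, limma adjusted p = 0.0265), a call lost without NC replicate 2 (0.0954), NC replicate 3 (0.0909), miR520 replicate 1 (0.0731) or miR520 replicate 2 (0.0956), and with centred arrays (0.0531). KIF16B lost this call with an unmoderated fit as well (adjusted p = 0.0984). Against NT its log2 fold change was -0.17 (limma adjusted p = 0.391).

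**Figure D3:**
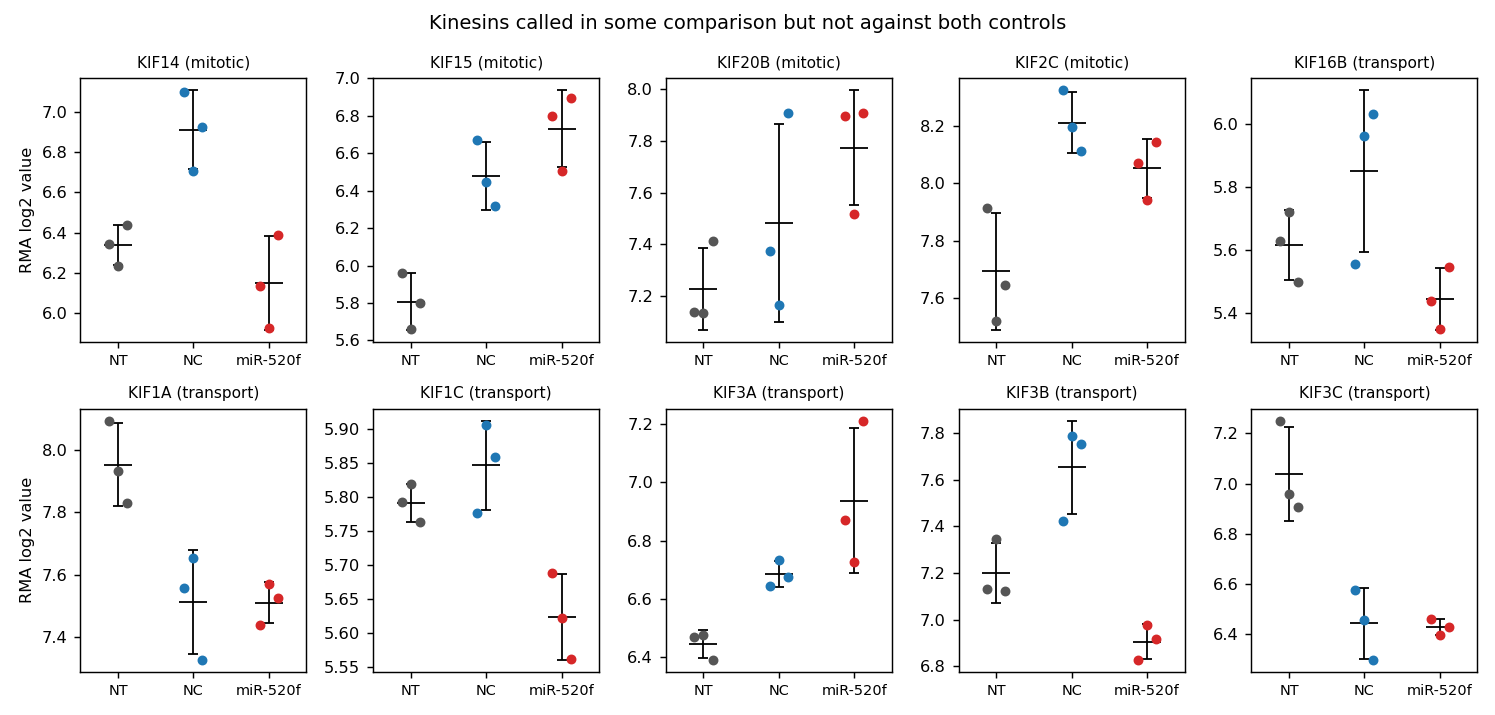
RMA log2 values (vertical axes, a scale for each gene) on the 3 arrays of each group, with the mean and SD, for the 10 kinesins that were called in at least 1 comparison but not against both controls. KIF15, KIF2C, KIF3A, KIF1A and KIF3C stand apart from NT on the same side with either mimic, while KIF14 and KIF3B have all NC points above the others.

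The heavy chains of conventional kinesin, KIF5A, KIF5B and KIF5C, were not called in any comparison of the main limma fit. KIF5A had a dimmer probe set, at 4.51, 4.74 and 3.76 in NT, 4.88, 5.25 and 4.99 in NC and 5.02, 4.58 and 4.89 with miR-520f. With averaged probe sets, which alter KIF5A alone among the transport kinesins, 3 transport kinesins in place of 2 rose in NC against NT. Without NT replicate 1 the counts were also 3 in place of 2, in NC and with miR-520f against NT. KIF5B, the form found in most cells, measured 10.63, 10.75 and 10.82 in NT, 10.38, 10.63 and 10.82 in NC and 10.88, 10.83 and 11.00 with miR-520f. Its log2 fold changes were 0.17 against NT and 0.29 against NC (SE 0.11 each, limma adjusted p = 0.342 and 0.0692). KIF5A had 0.21 and -0.03, and KIFC3, a motor that walks to the minus end, -0.14 and -0.14. With a repeated quantile normalization, with replicate numbers fitted as a block, or without NC replicate 3, 2 transport kinesins in place of 1 rose against NC. The added member had no call in the main limma fit. Among the transport kinesins without such a call KIF5B had the largest rise against NC.

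Adaptors and light chains couple these motors to cargo. Of 18 measured (of 24 listed), 4 rose and 4 fell against NT, 3 rose and 4 fell against NC, and 1 rose and 4 fell against both controls, with medians of -0.04 and 0.12. That is 44.4%, 38.9% and 27.8% of them called, beside the same shares of all genes as above. The called ones lay above the median level of 4.53, and of genes at or above it 46.6% were called against NT and 47.3% against NC. KLC2, a light chain of conventional kinesin, measured 8.57, 8.49 and 8.24 in NT, 8.16, 8.51 and 8.40 in NC and 6.84, 6.99 and 6.76 with miR-520f. Its miR520 arrays lay far below all control arrays. KLC2 fell by 1.57 and 1.50 against NT and NC (SE 0.11 each, limma adjusted p = 2.46e-06 and 3.41e-06).

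FEZ2, a kinesin adaptor, fell by 1.37 and 1.36 against NT and NC (SE 0.07 each), and TRAK1, which links conventional kinesin to mitochondria, by 0.84 and 0.66. Of 25 measured genes of dynein and dynactin (of 30 listed), which drive movement toward the minus end, 6 rose and 3 fell against NT and 8 rose and 4 fell against NC. Against both controls 5 rose and 2 fell, so that 36.0%, 48.0% and 28.0% were called, where all genes gave 27.6%, 28.1% and 18.0%. The called members lay above the median level of 4.53, while DYNC1I1, DYNLRB2, BICDL1, HOOK1 and HOOK2 lay below it without a call. Of genes at or above that level 46.6% were called against NT and 47.3% against NC. SPDL1, the dynein adaptor of the kinetochore, rose by 1.01 and 0.46 and DCTN5, a dynactin subunit, by 0.49 and 0.47, while BICD1, an adaptor of Golgi vesicles, fell by 0.77 and 0.87 and DCTN1, the large dynactin subunit, by 0.56 and 0.49.

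Among the remaining kinesins, KIF21A, which restrains microtubule growth, was the 1 member called. Its values were 5.68, 5.64 and 5.58 in NT, 6.10, 6.16 and 6.38 in NC and 6.70, 6.70 and 6.88 with miR-520f, so the groups lay in 3 separate steps. KIF21A (probe set 3450775) rose by 1.13 against NT (SE 0.09, 2.19-fold, limma adjusted p = 5.28e-06), by 0.55 against NC (SE 0.09, limma adjusted p = 0.000755) and by 0.58 with the control mimic against NT (SE 0.09, limma adjusted p = 0.0014). The other 7 of this group were dim, with log2 fold changes from -0.15 (KIF26B) to 0.03 (KIF26A) against NT and from -0.16 (KIF26B) to 0.05 (KIF12) against NC, and KIF12 had the largest difference between the controls (NC minus NT, -0.18, limma adjusted p = 0.301).

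The control mimic was also compared with the reagent alone. In NC against NT, 7 kinesins rose and 2 fell, 29.0% of all kinesins. Over all genes 15.3% were called, 7.00% higher and 8.28% lower. The 7 rises and 2 falls all lay among the 20 brighter kinesins, while 26.4% of all genes of that brightness were called. The rises were KIF15, KIF2A, KIF14, KIF2C, KIF1B, KIF3B and KIF21A, and the falls KIF1A and KIF3C. The mitotic count of 4 rises became 2 without NT replicate 2, and 1 with an unmoderated fit. The difference KIF13A showed between the controls, 0.26, was not called (limma adjusted p = 0.0650) and passed without NC replicate 3 (0.0495) or with centred arrays (0.0331).

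Mitotic and transport kinesins were then set side by side on each array. For each role the deviation of every member from its own mean over the 9 arrays was taken, and the median over members was read per array. The mitotic median was -0.12, -0.39 and -0.17 in NT, 0.00, -0.12 and -0.02 in NC and 0.43, 0.16 and 0.41 with miR-520f. The transport median was -0.02, 0.04 and 0.04 in NT, 0.06, 0.02 and 0.06 in NC and -0.04, -0.08 and -0.11 with miR-520f. On every miR520 array the mitotic median was above, and the transport median below, that of each control array. With arrays centred on their median over all genes the mitotic order held, but the transport order did not: NT replicate 1 was then at -0.0712, below the miR520 arrays at -0.0196, -0.0660 and -0.0587.

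Mitotic minus transport was -0.25 ± 0.17 in NT, -0.09 ± 0.04 in NC and 0.41 ± 0.15 with miR-520f (SD, n = 3 each). The difference of groups was 0.66 for miR-520f against NT, 0.51 against NC and 0.15 for NC against NT. With KIF2A left out of the mitotic kinesins these were 0.61, 0.48 and 0.13. The last of these differences was smaller than the SD of the NT arrays. As summaries over chosen members the values are a description, and no p is given for them.

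**Figure D4:**
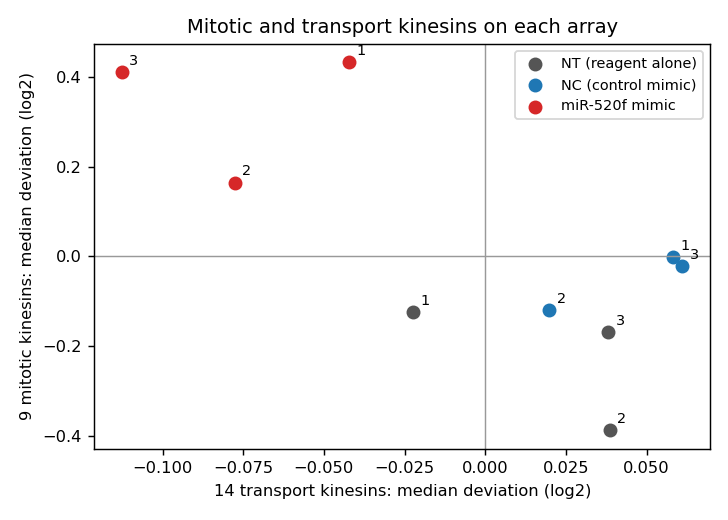
Median deviation from each gene's own mean (log2 units) over the 14 transport kinesins (horizontal axis) and over the 9 mitotic kinesins (vertical axis, a wider scale), with a point for each of the 9 arrays labelled with its replicate number. The miR520 arrays lie at 0.16 to 0.43 on the mitotic axis and at -0.11 to -0.04 on the transport axis, apart from the NT and NC arrays on both axes; after median centring this separation holds on the mitotic axis alone.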

How the data were processed

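The authors deposited log2 values for 9 arrays, each with 22011 probe sets. The submitters' processing notes list Partek 6.6, RMA and build hg18 but no settings. Probe sets were named through the platform annotation (14432 with 1 symbol, 2408 with several, 5171 not named here), and the brightest probe set per symbol gave 14232 genes. limma 3.58.1 (R 4.3.3) was fitted with 1 mean per group over all 9 arrays, with empirical Bayes moderation, 6 residual degrees of freedom and 3 contrasts, and Benjamini-Hochberg adjustment over all genes at 0.05. The fit was tested on simulated data. The labels describe the replicates as biological but not how the cultures were kept apart, and p-values then reflect only the spread among the arrays, which may be technical. The number of arrays limits the precision.

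Members and lists were chosen with earlier results of these data known. The split of genes at the median level was made after the values were seen. By rule, fold changes are given for every kinesin called in any contrast, values per array for those called against both controls and for the 2 of largest absolute fold change in each contrast and role, and up to 4 members per other list, called against both controls and ranked by the smaller of their absolute fold changes. Values per array of the other called kinesins, KIF5B and KLC2, the fold changes of uncalled kinesins, CD68, CIT, MKI67 and CENPE were added after values were seen. Promoter windows and microRNAs are from RefSeq on GRCh38.p14, and no coordinates were converted. Alternatives were a repeated quantile normalization, median centring, a filter on the dimmest 25% of genes, an unmoderated fit, a replicate block, averaged probe sets and leaving out each array.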

Additional observations from a re-analysis of the deposited data

How the results depend on the processing

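Of 765 values of a called kinesin in a comparison under an alternative, 718 kept their direction and their side of the threshold, 37 lost a call, 10 gained one and 0 changed direction with a call. Kinesins called in no comparison of the main limma fit, KIF5A and KIF5B among them, are outside this tally. KIF11, KIF18A, KIF22, KIF13A, KIF1B and KIF21A kept both calls against the controls under every alternative run. The number of kinesins called in NC against NT was 9, and 4 with an unmoderated fit. Leaving out single arrays gave 11 to 14 kinesins called against NT, 9 to 11 against NC, 7 to 8 against both controls and 7 to 10 in NC against NT. The mitotic minus transport difference then ran from 0.52 to 0.77 against NT (lowest without NT replicate 2), from 0.45 to 0.62 against NC and from 0.07 to 0.23 for NC against NT. The count of 4 transport kinesins lower than in NC became 2 with centred arrays, and without NC replicate 2, NC replicate 3, miR520 replicate 1 or miR520 replicate 2. After a further quantile normalization 3 transport kinesins, in place of 1, fell against both controls, with KIF1C (adjusted p = 0.0457) and KIF3B (adjusted p = 0.0344) added against NT, while KIF20B (0.0776) and KIF2C (0.0691) lost that call. The cause was not tested. Same-numbered replicates correlated from -0.03 to 0.20 in their deviations, with 4 of 9 pairs over 0.1 and 5 of 9 arrays closest to their own number. These values do not settle whether the numbers mark pairs, and the main limma fit did not take them as pairs. With the replicate block 14, 12, 9 and 8 kinesins were called against NT, against NC, in NC against NT and against both controls. Signal near the lower end of the scale limits what can be seen for the 11 dim kinesins.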
